A study of Saccharomyces cerevisiae with 6 samples.

Results

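The NOX strain of Saccharomyces cerevisiae was compared with its empty-plasmid control over 4 of the 6 arrays in the series, chosen by the plasmid named in their titles. The NOX strain was CEN.PK113-7D, a laboratory reference strain, transformed with pYX212-NOX (2 arrays). The control was CEN.PK113-7D transformed with pYX212 without an insert (2 arrays). Another strain carried pYX212-AOX (2 arrays) and entered the comparison through the shared estimate of the spread and the normalization between arrays. All cultures were chemostats held at the critical dilution rate in minimal medium with glucose at 10 g/L as the only carbon source. Host strain, plasmid backbone, medium and mode of cultivation were therefore shared by all arrays. Whether the strains had the same dilution rate is not given, so a difference in growth rate could not be told apart from the oxidase. The labels give neither the promoter nor the source organism of the oxidase, no growth rate in numbers, and no word on whether the replicates were grown separately. The p-values therefore rest on array-to-array spread, and that spread may be technical. No probe set for the transgene was identified, so its own level was not measured.

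An NADH oxidase placed in the cytosol transfers electrons from NADH to oxygen without the respiratory chain. Yeast otherwise reoxidises cytosolic NADH through external NADH dehydrogenases of the mitochondrion, through redox shuttles, through glycerol formation or by reducing acetaldehyde to ethanol. The critical dilution rate is the rate above which glucose-limited yeast begins to form ethanol beside respiring. Genes for the use of ethanol, acetate and other non-sugar carbon are known to be repressed by glucose.

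Signals were compared as log2(intensity + 16) after quantile normalization, and every level and difference below is on that scale unless a fold or another scale is named. The test was limma's moderated test over 5498 S. cerevisiae probe sets with Benjamini-Hochberg adjustment, and a gene is called higher or lower where the adjusted p was below 0.05. A gene is called flat where the unadjusted 95% confidence interval of its difference lay wholly within 1.5-fold in either direction. The median deposited intensity was 511 and 543 on the NOX arrays and 526 and 531 on the control arrays. The MATa-specific genes MFA1, MFA2, STE2, STE6, BAR1 and AGA2 stood between 9.63 and 12.34 on the NOX and control arrays, none of them called. Of the MATalpha-specific genes on the same arrays, MF(ALPHA)2 lay between 5.37 and 5.71, MF(ALPHA)1 between 6.56 and 6.68, STE3 between 7.29 and 7.45 and SAG1 between 7.60 and 7.82, also with 0 called, and MF(ALPHA)2 alone was near background.

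The replicates were not equally alike. The NOX arrays differed from each other with an SD of 0.20 over probe sets (7 of them by 2-fold or more), the control arrays with an SD of 0.05 (0 by 2-fold or more). On NOX replicate 1 the hybridisation controls averaged 10.81, against 9.61 on NOX replicate 2 and 9.55 and 9.59 on the control arrays. The ribosomal RNA probe sets of NOX replicate 1, on the same unnormalized scale, averaged 4.80, against 6.22 on NOX replicate 2 and 6.68 and 6.78 on the control arrays. The part of these technical differences in the results was not tested.

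The comparison called 204 probe sets (3.71% of those tested), 154 of them higher (2.8%) and 50 lower (0.909%) in NOX, and 5069 (92.2%) were flat. Most changes were small: the median size of a called difference was 0.51, 132 called probe sets differed by less than 1.5-fold and 74 were both called and flat. A further 299 probe sets were neither called nor flat, so the arrays left them undecided. The control signal of the genes called higher had a median of 8.26, against 9.19 for those called lower and 9.09 over all probe sets.

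**Figure D1:**
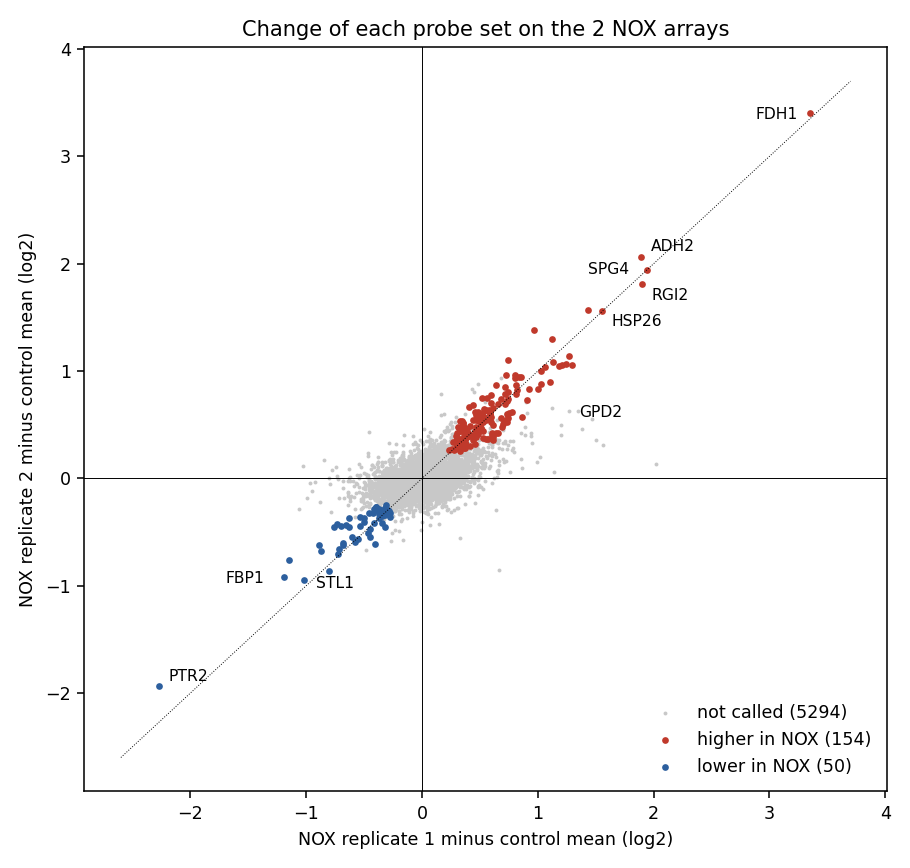
Difference of each of 5498 probe sets from the control mean on NOX replicate 1 (horizontal axis, log2) and NOX replicate 2 (vertical axis, log2), with called probe sets in colour and equality as a dotted line. Called probe sets lie close to the line, while many with a large difference on replicate 1 alone, and GPD2 with 1.27 and 0.63, were not called.

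The number of calls changed with the arrays fitted. With control replicate 1 left out 17 probe sets were called (14 higher, 3 lower), and with control replicate 2 left out 14 (12 higher, 2 lower). Without NOX replicate 1 the count was 264, and without NOX replicate 2 it was 1453, of which 739 were higher and 714 lower. Of 108 called genes named here by rule, 13 kept their call in each of 16 alternative fits: FDH1, ADH2, SPG4, RGI2, HSP26, SIP18, PRR2, YMR175W-A, FMP16, SRD1 and BAP2, which rose, and STL1 and PTR2, which fell. The sign of no named call turned in any of these fits. Leaving out 1 array could not turn it, since the NOX and control arrays did not overlap for any of the 204 called probe sets. The 16 fits are not all distinct, since the fit on the NOX and control arrays alone and those without 1 AOX array gave the same counts.

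Several genes on the route from ethanol to acetyl-CoA rose. Of 15 measured genes for pyruvate decarboxylation and for acetaldehyde and acetate metabolism and transport, 7 were called higher (46.7%, against 2.8% of all probe sets), 0 lower, and the list had a median difference of 0.27, which lay between 0.13 and 0.26 under the other scalings. ADH2, the alcohol dehydrogenase that oxidises ethanol, stood at 11.47 and 11.64 on the NOX arrays and at 9.61 and 9.55 on the control arrays. ACS1, an acetyl-CoA synthetase used on non-sugar carbon, stood at 10.63 and 10.86 in NOX, against 9.98 and 10.00 in control. The groups did not overlap for either gene, as for 55.5% of all probe sets. ACS1 rose by 0.76 (SE 0.08, adjusted p = 0.00975), a 1.69-fold rise.

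Between ethanol and acetyl-CoA lie the aldehyde dehydrogenases. The mitochondrial enzyme gene ALD4 rose by 0.40 (SE 0.04, adjusted p = 0.00975), the cytosolic ALD6 by 0.30 (SE 0.05, adjusted p = 0.0313) and the stress-induced cytosolic ALD3 by 0.36 (SE 0.06, adjusted p = 0.0384). All 3 rises were also flat by the interval, below 1.5-fold. The call of ALD3 was lost in 13 of 16 alternative fits, each of the other scalings among them, and its difference was 0.13 at its lowest. The acetate carrier gene ADY2 rose by 0.85 (SE 0.09, adjusted p = 0.00953), and its relatives ATO2 and ATO3, plasma membrane proteins tied to acetate and ammonium transport, by 0.51 (adjusted p = 0.00907) and 1.17 (adjusted p = 0.0138). ATO3 stood at 10.67 and 11.08 in NOX, against 9.68 and 9.72 in control, so that its NOX arrays lay further apart than its control arrays. Among the fermentative steps upstream, PDC1, the main pyruvate decarboxylase gene, differed by 0.06 (95% interval from -0.06 to 0.17) and PDC5 by -0.14, both flat. Without control replicate 1 or 2, 0 of the 15 genes were called, and ADH2, which belongs to the list of alcohol dehydrogenases, kept its call (adjusted p = 0.0120 and 0.0129).

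**Figure D2:**
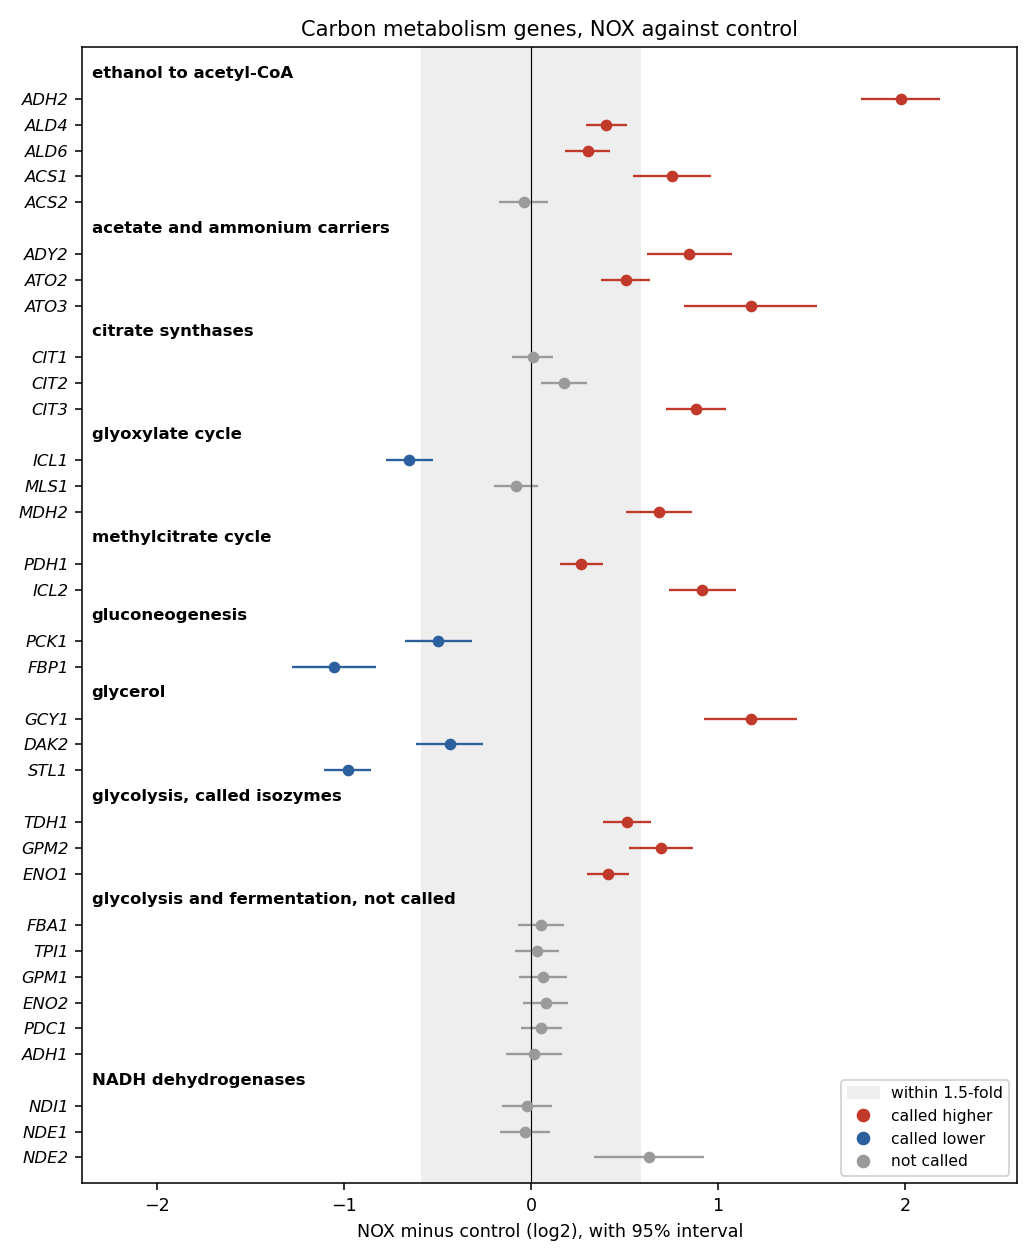
Difference between NOX and control (horizontal axis, log2) of genes of carbon metabolism, with 95% intervals from limma and the range within 1.5-fold shaded. Steps from ethanol to acetyl-CoA and the acetate carriers lie to the right, while ICL1, PCK1, FBP1, DAK2 and STL1 lie to the left within otherwise mixed pathways.

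Steps that use acetyl-CoA moved against each other. The glyoxylate cycle turns acetyl-CoA into C4 acids. Of 18 measured genes of the cycle and the carriers of its substrates, 5 were higher (27.8%) and 1 lower (5.56%). The shares over all probe sets were 2.8% and 0.909%, and the list had a median of 0.13. The gene that fell was ICL1, the isocitrate lyase that opens the cycle, at 9.75 and 9.81 in NOX, against 10.41 and 10.45 in control (-0.65, SE 0.05, adjusted p = 0.00376). MLS1, the malate synthase of the next step, was flat at -0.08 (95% interval from -0.20 to 0.04). MDH2, the cytosolic malate dehydrogenase that follows, stood at 10.53 and 10.72 in NOX, against 9.95 and 9.93 in control, and rose by 0.69 (SE 0.07, adjusted p = 0.00907). The cycle thus held a lower, a flat and a higher step in succession. The lactate and pyruvate permease gene JEN1 rose by 0.34 (adjusted p = 0.0210).

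The methylcitrate cycle, which breaks down propionyl-CoA in the mitochondrion, has 3 dedicated genes, and each of them rose. CIT3, a mitochondrial citrate and methylcitrate synthase, stood at 9.48 and 9.64 in NOX, against 8.69 and 8.67 in control (0.88, SE 0.07, adjusted p = 0.00353). ICL2, the methylisocitrate lyase, stood at 11.54 and 11.37 in NOX, against 10.52 and 10.55 in control (0.92, SE 0.07, adjusted p = 0.00428). PDH1, the methylcitrate dehydratase, stood at 12.54 and 12.53 in NOX, against 12.27 and 12.26 in control (0.27, SE 0.05, adjusted p = 0.0420). The rise of PDH1 was also flat by the interval, and its call was lost in 9 of 16 alternative fits, that without quantile normalization among them. ICL1 and ICL2 were the only pair among 57 measured pairs of isozymes or paralogs whose members were called in opposite directions.

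Gluconeogenesis fell at its committed steps. PCK1, which makes phosphoenolpyruvate from oxaloacetate, stood at 10.06 and 9.96 in NOX, against 10.51 and 10.50 in control, and was 1.41-fold lower (-0.50, SE 0.07, adjusted p = 0.0245). FBP1, the fructose bisphosphatase, stood at 7.99 and 8.26 in NOX, against 9.17 and 9.18 in control, and was 2.08-fold lower (-1.05, SE 0.09, adjusted p = 0.00531). MDH2, which supplies the oxaloacetate, rose as given above. The transcription factor genes CAT8 and SIP4, activators of gluconeogenic genes, differed by 0.18 and 0.22, and ADR1, an activator of ADH2 and of peroxisomal genes, by 0.01, all 3 flat. Subunits of the complex that marks the FBP1 protein for destruction were flat too, with VID30 at 0.14, GID8 at 0.04 and RMD5 at 0.05. The 18 genes of this list had 1 higher (5.56%), 2 lower (11.1%) and 15 flat (83.3%), against 2.8%, 0.909% and 92.2% of all probe sets. Without control replicate 1 the adjusted p was 0.0751 for ICL1, 0.0715 for FBP1, 0.114 for MDH2, 0.0677 for ICL2 and 0.0596 for CIT3, and without either control replicate 0 genes of the glyoxylate, methylcitrate and gluconeogenesis lists were called.

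**Figure D3:**
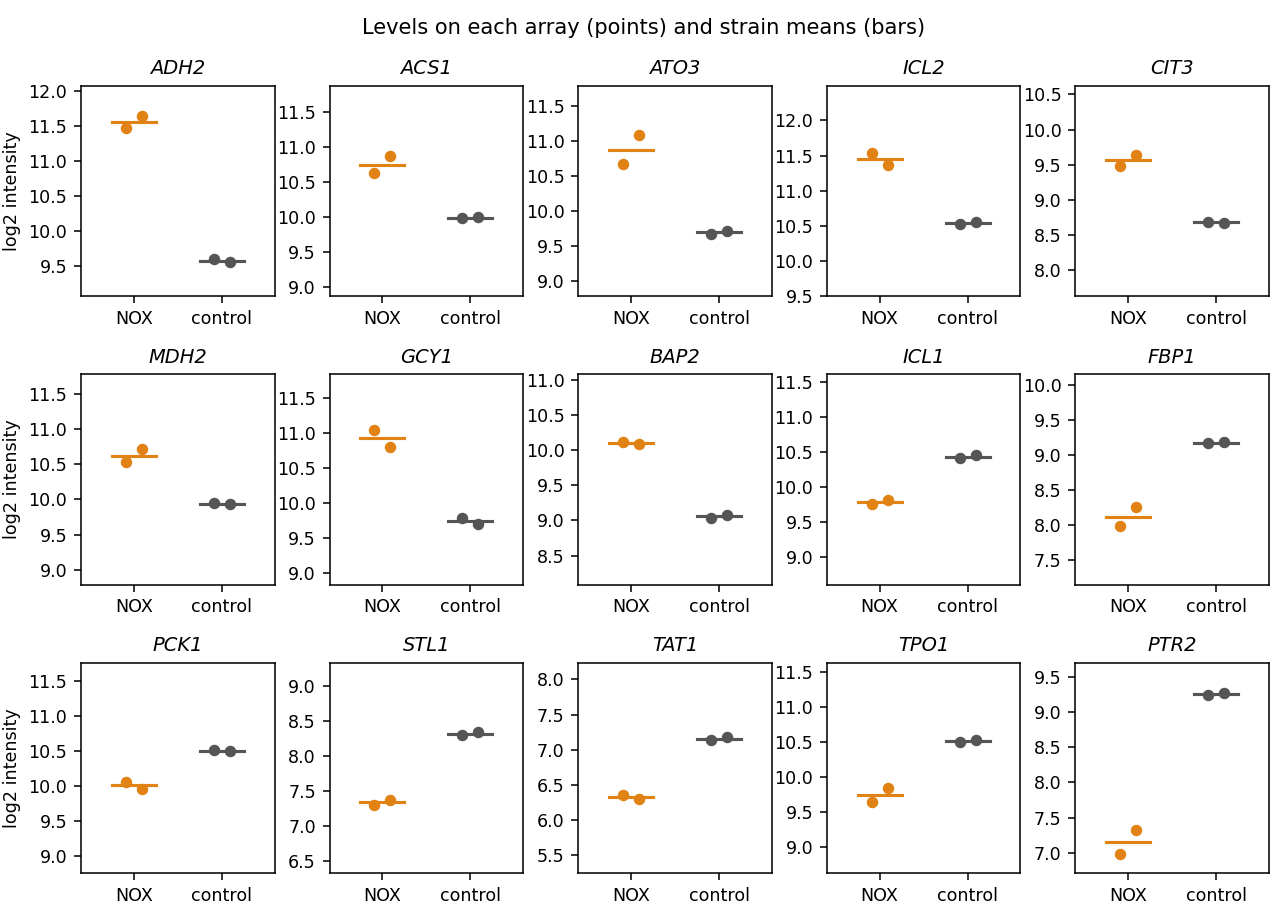
Level of 15 genes (vertical axes, log2 intensity, each spanning the same range) on the NOX arrays, left, and the control arrays, right, with points for arrays and bars for strain means. All 15 genes were shown because they were called, and the control arrays lie closer together than the NOX arrays for most of them.

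Glycerol genes were called in both directions. GCY1, a glycerol dehydrogenase, rose 2.26-fold, with 11.05 and 10.80 in NOX and 9.79 and 9.70 in control (1.18, SE 0.10, adjusted p = 0.00523). DAK2, a dihydroxyacetone kinase that acts after it, fell by 0.44 (adjusted p = 0.0351), at 5.91 and 6.04 in NOX, against a mean of 6.41 in control. STL1, which imports glycerol with protons, stood at 7.30 and 7.37 in NOX, against 8.30 and 8.34 in control, and was 1.97-fold lower. Of the enzymes that form glycerol and spend NADH, GPD1 was flat at 0.22 (SE 0.05, adjusted p = 0.0819). GPD2 stood at 9.0 and 8.36 in NOX, against 7.74 and 7.71 in control, and its 95% interval ran from -0.01 to 1.91, so the arrays did not settle its difference. Of 15 glycerol genes, 1 was higher (6.67%), 2 were lower (13.3%) and 11 were flat (73.3%), against 2.8%, 0.909% and 92.2% of all probe sets. STL1 alone of the called genes in this list kept its call without control replicate 1 (adjusted p = 0.0333) or control replicate 2 (adjusted p = 0.0335).

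In glycolysis the called genes were isozymes or paralogs. None of 12 genes of the upper pathway, from the hexokinases to triose phosphate isomerase, was called. Of the 12, 11 were flat (91.7%, near the 92.2% of all probe sets). HXK1 and HXK2, the hexokinase genes, differed by 0.13 and -0.14. In the lower pathway 4 of 11 measured genes were called higher (36.4%, against 2.8% of all probe sets), TDH1, GPM2, ENO1 and ERR3. TDH1, a glyceraldehyde phosphate dehydrogenase, rose by 0.51 (adjusted p = 0.00790) and ENO1, an enolase, by 0.41 (adjusted p = 0.00975). GPM2, a homolog of phosphoglycerate mutase, stood at 8.55 and 8.39 in NOX, against 7.77 and 7.79 in control (0.70, SE 0.07). The main mutase gene GPM1 and the main enolase gene ENO2 were flat at 0.06 and 0.08. The probe set of ERR3, an enolase-like gene near a chromosome end, may also detect its near-identical copies, so its rise of 0.53 is uncertain. TDH3, the main glyceraldehyde phosphate dehydrogenase gene, stood at 13.82 on all 4 arrays, at the top of the scale, where quantile normalization leaves no difference to be seen. None of these genes was called when either control array was left out.

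Both main NADH dehydrogenases of the mitochondrion were flat. NDI1, the internal NADH dehydrogenase, stood at 11.77 and 11.66 in NOX, against 11.75 and 11.72 in control. NDE1, the main external NADH dehydrogenase, stood at 12.42 and 12.52 in NOX, against 12.51 and 12.49 in control. Their 95% intervals ran from -0.15 to 0.11 and from -0.16 to 0.10. The exception was NDE2, the second external enzyme, at 7.83 and 8.19 in NOX, against 7.39 and 7.37 in control, which missed the threshold (0.63, SE 0.12, adjusted p = 0.0517). Of the 8 NADH and lactate dehydrogenase genes of mitochondria, 7 were flat (87.5%, against 92.2% of all probe sets) and 0 called. Among 13 shuttle genes 11 were flat (84.6%) and only MDH2 was called. The lactate dehydrogenase genes CYB2 and DLD1 differed by 0.01 and -0.03.

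Of 23 genes for NAD synthesis and salvage, 0 were called and 22 were flat (95.7%, near the 92.2% of all probe sets). Of 11 NAD kinase and NADPH genes, 9 were flat (81.8%) and 2 were higher (18.2%, against 2.8% of all probe sets), YEF1, a kinase of NADH and NAD, and ALD6, which yields NADPH. YEF1 stood at 9.12 and 9.35 in NOX, against 8.58 and 8.63 in control (0.63, SE 0.09, adjusted p = 0.0210). Its relative UTR1 was flat at 0.06. In the pentose phosphate pathway 1 of 20 genes was called (5%, near the 3.71% of all probe sets). It was NQM1, a transaldolase paralog, at 8.18 and 8.17 in NOX, against 7.44 and 7.42 in control (0.74, SE 0.05), while TAL1, the main transaldolase gene, was flat at 0.14. Without control replicate 1 the adjusted p of NQM1 was 0.0596 and that of YEF1 was 0.220.

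All 22 measured genes of complexes III and IV and cytochrome c were flat, against 92.2% of all probe sets, and 0 called. Their differences lay between -0.18 and 0.15. COX5A and COX12, subunits of cytochrome c oxidase, differed by -0.04 and 0.02, CYC1, cytochrome c, by 0.03 and QCR7, of complex III, by 0.05. All 17 ATP synthase genes were flat, with STF2, a small protein named for a role in ATPase inhibition and also counted among hydrophilins, called higher at 0.33 (adjusted p = 0.0381). In the TCA cycle 15 of 16 measured genes were flat and CIT3 alone was called. CIT1, the main citrate synthase, stood at 13.22 and 13.23 in NOX, against 13.22 and 13.22 in control. HAP4, the activating subunit of the factor that drives respiratory genes, differed by -0.01 (95% interval from -0.17 to 0.14). PKP1, a kinase that inhibits pyruvate dehydrogenase, was the single called gene of pyruvate entry into mitochondria, at 0.30 (adjusted p = 0.0351). RGI2, a gene of energy metabolism under respiratory growth, rose 3.61-fold, with 11.30 and 11.21 in NOX and 9.39 and 9.41 in control, against a flat paralog RGI1 (-0.03, 95% interval from -0.30 to 0.23). Without control replicate 1 or 2, RGI2 kept its call (adjusted p = 0.00581 and 0.00649), 21 of the 22 genes of complexes III and IV were flat, and without NOX replicate 2 1 of the 22 was called higher and 1 lower.

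Of 21 genes of formate and one-carbon metabolism, 2 were higher (9.52%) and 1 lower (4.76%), against 2.8% and 0.909% of all probe sets. FDH1, formate dehydrogenase, which reduces NAD to NADH, stood at 8.94 and 8.99 in NOX, against 5.64 and 5.53 in control, where both values were not well above background. The rise in NOX was at least 9.19-fold (adjusted p = 0.000331). Its probe set may also detect a near-identical copy. MET13, a methylenetetrahydrofolate reductase that feeds methionine synthesis, rose by 0.45 (SE 0.05, adjusted p = 0.00965). MIS1, the mitochondrial folate enzyme that links formate to tetrahydrofolate, fell by 0.28 (SE 0.05, adjusted p = 0.0456), a call lost in 10 of 16 alternative fits. The other 18 of the 21 genes of this list were not called. Flat genes were 20 of the 21 (95.2%, near the 92.2% of all probe sets). Without either control replicate FDH1 alone of the list was called.

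Pairs of isozymes or paralogs were compared next. In 20 of 57 measured pairs 1 member was called, and the other member was flat in each of the 20. Over all probe sets 3.71% were called and 92.2% were flat, so a flat partner is common. The pairs are not all distinct, since MDH2 for example belongs to more than 1 of them. In 4 pairs both were called and in 33 neither. The difference between members of a pair was not tested. ADH2 rose 3.93-fold beside ADH1, the main fermentative alcohol dehydrogenase gene, at 13.17 and 13.30 in NOX and 13.21 and 13.22 in control (0.02, 95% interval from -0.13 to 0.17). ACS2, the acetyl-CoA synthetase of growth on glucose, was flat at -0.04 beside the rise of ACS1. YPR1, an aldo-keto reductase related to GCY1, was flat at -0.13. MDH1 and MDH3, the mitochondrial and peroxisomal malate dehydrogenases, were flat at -0.02 and 0.08 beside MDH2. The chaperone gene SSE2 rose by 0.58 (adjusted p = 0.00523) with SSE1 flat at 0.08. PXA1, which encodes 1 subunit of the peroxisomal fatty acid importer, rose by 0.59 (adjusted p = 0.0108), with its partner PXA2 flat at -0.07. GSY1, a glycogen synthase, fell by 0.33 (adjusted p = 0.0297) with GSY2 flat at 0.02. These pair counts hold for the fit on all 6 arrays, and of the called members named here ADH2 alone kept its call without control replicate 1 or 2.

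**Figure D4:**
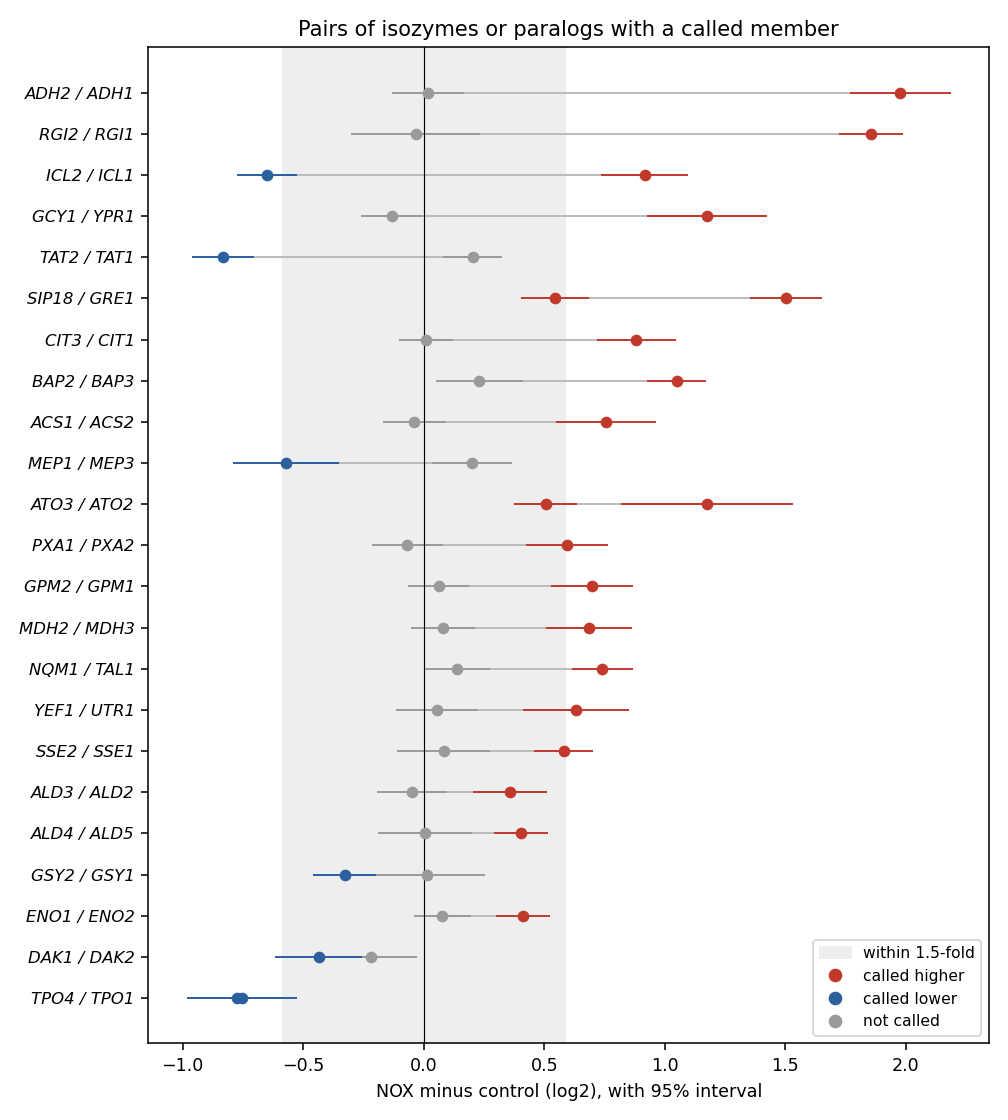
Difference between NOX and control (horizontal axis, log2) of both members of each isozyme or paralog pair with a called member, with 95% intervals and the range within 1.5-fold shaded, sorted by the gap between members. The pair of MDH2 with MDH1 is left out, since MDH2 is shown beside MDH3, and ICL2 and ICL1 alone are called to opposite sides.

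Permeases changed without a common direction. Of 22 amino acid permease genes, 3 were higher (13.6%) and 1 lower (4.55%), against 2.8% and 0.909% of all probe sets. BAP2, a permease of branched-chain amino acids, stood at 10.12 and 10.09 in NOX, against 9.03 and 9.08 in control (1.05, SE 0.05, adjusted p = 0.000817). TAT1, which carries branched-chain and aromatic amino acids, stood at 6.35 and 6.29 in NOX, against 7.14 and 7.18 in control (-0.83, SE 0.05, adjusted p = 0.00244). These genes with overlapping substrates are neighbours on the chromosome and moved in opposite directions. ALP1, a basic amino acid permease, was dim in control, not well above background on either array, and rose at least 1.63-fold (6.47 and 6.47, against 5.57 and 5.72 in control; adjusted p = 0.00915). GNP1, a glutamine permease, rose by 0.34 (adjusted p = 0.0182). BAP2 was called without either control replicate, and TAT1 without control replicate 1 (adjusted p = 0.0484) but not without control replicate 2 (adjusted p = 0.0613).

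PTR2, the importer of dipeptides and tripeptides, had the largest fall of all genes. It stood at 6.99 and 7.32 in NOX, against 9.25 and 9.27 in control, and was 4.30-fold lower. OPT2, an oligopeptide transporter, stood at 6.0 and 5.99 in NOX, against 6.57 and 6.54 in control (-0.56, SE 0.05, adjusted p = 0.00758). The other 10 of 12 genes in the list of peptide transport and its regulators were flat (83.3%, against 92.2% of all probe sets). SRY1, an enzyme that breaks down hydroxyaspartate and neighbours JEN1, fell by 0.95 (SE 0.13, adjusted p = 0.0210), with 8.25 and 8.64 in NOX and 9.40 and 9.40 in control. The Ehrlich pathway genes ARO9 and ARO10, a transaminase and a decarboxylase of amino acid breakdown, differed by 0.55 and 0.81 and were neither called nor flat. PTR2 kept its call without control replicate 1 (adjusted p = 0.0374) or control replicate 2 (adjusted p = 0.0392), and OPT2 did not (adjusted p = 0.129 and 0.119).

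Called exporter genes went both ways. The polyamine exporter genes TPO1 and TPO4 fell, by 0.77 (SE 0.08, adjusted p = 0.00843) and 0.75 (SE 0.09, adjusted p = 0.0138). TPO1 stood at 9.64 and 9.84 in NOX, against 10.50 and 10.53 in control. For TPO2 the brighter probe set was not called (-0.28, adjusted p = 0.217) and a dimmer one was (-0.49, adjusted p = 0.00915), so its probe sets disagree, and TPO3 was flat at 0.02. In the same list of multidrug and organic acid exporters 4 of 24 genes were higher (16.7%) and 2 lower (8.33%). The shares over all probe sets were 2.8% and 0.909%. PDR12, the exporter of weak organic acids, stood at 12.45 and 12.27 in NOX, against 11.72 and 11.70 in control (0.65, SE 0.08, adjusted p = 0.0149). QDR2, a drug and cation antiporter, rose by 0.78 (adjusted p = 0.0149), SNQ2 by 0.34 (adjusted p = 0.0265) and PDR10 by 0.36 (adjusted p = 0.0270), the last pair being ABC transporters. Leaving out either control array left 0 exporters of the list called.

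Nitrogen genes moved singly. Among the 6 ammonium permease and ATO genes, ADY2, ATO2 and ATO3 rose while MEP3, a low-affinity ammonium permease, fell by 0.57 (SE 0.09, adjusted p = 0.0287), with 8.76 and 9.02 in NOX and 9.48 and 9.45 in control. Of 31 genes under nitrogen catabolite repression, 3 were higher (9.68%, against 2.8% of all probe sets), with a median of -0.02. Flat genes were 27 of the 31 (87.1%, against 92.2% of all probe sets). PUT1, proline oxidase, rose by 0.72 (SE 0.11, adjusted p = 0.0245), with PUT2, the next enzyme of proline use, flat at -0.22. GDH2, the glutamate dehydrogenase that releases ammonium and forms NADH, stood at 10.04 and 9.85 in NOX, against 9.50 and 9.47 in control (0.46, adjusted p = 0.0300). GDH1, which runs in the assimilating direction with NADPH, was flat at 0.02. DAL80, a repressor of nitrogen genes, rose by 0.52 (adjusted p = 0.00758), and the general amino acid permease GAP1 was flat at -0.15. Of 50 genes of amino acid biosynthesis under Gcn4, 0 were called and 46 were flat (92%, near the 92.2% of all probe sets). Their median was -0.13, and 42 of 50 differences lay below 0, against 2813 of 5498 over all probe sets. That last list depended on the arrays, since 23 of its genes were called lower and 1 higher without NOX replicate 2, and 0 without NOX replicate 1. Leaving out either control array left 0 calls among the nitrogen genes named here.

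Stress and stationary phase genes were called in 1 direction. Of 19 hydrophilin and stationary phase genes, 10 were higher (52.6%, against 2.8% of all probe sets) and 0 lower, with a median of 0.42. SPG4, needed for survival in stationary phase, stood at 9.38 and 9.38 in NOX, against 7.47 and 7.43 in control, and rose 3.83-fold. SIP18, a hydrophilin of drying and salt stress, stood at 9.61 and 9.74 in NOX, against 8.18 and 8.16 in control, and its paralog GRE1 rose by 0.55 (adjusted p = 0.00907). MOH1 and SPG1, further stationary phase genes, rose by 1.01 (adjusted p = 0.00558) and 0.92 (adjusted p = 0.0160), and TMA10, a ribosome-associated protein, by 0.56 (adjusted p = 0.00531). SNO1, a stationary phase gene of vitamin B6 synthesis, was at least 2.14-fold higher (adjusted p = 0.00523).

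Among 41 general stress genes, 14 were higher (34.1%, against 2.8% of all probe sets) and 0 lower, with a median of 0.17. Of the 41, 27 were flat (65.9%, against 92.2% of all probe sets). HSP26, a small heat shock protein, stood at 12.07 and 12.08 in NOX, against 10.52 and 10.51 in control, a 2.94-fold rise. DDR2 rose by 0.90 (adjusted p = 0.00558), DCS2, an inhibitor of messenger RNA decapping, by 0.65 (adjusted p = 0.00836) and FMP16 by 1.11 (adjusted p = 0.00154). The catalase gene CTT1 and the disaggregase gene HSP104 were flat at 0.17 and 0.20. Without control replicate 1 or 2 the stress list held 2 called genes and the stationary phase list 3, and without NOX replicate 2 they held 19 higher and 2 lower, and 13 higher and 1 lower.

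Chaperones and redox defence were mixed. Of 31 heat shock and chaperone genes 4 were higher (12.9%), 1 lower (3.23%) and 23 flat (74.2%), against 2.8%, 0.909% and 92.2% of all probe sets. The lower gene, HSP31, a methylglyoxalase, fell by 0.60 (SE 0.10, adjusted p = 0.0355), with 8.74 and 9.05 in NOX and 9.50 and 9.49 in control. HSP42, another small heat shock protein, rose by 0.55 (adjusted p = 0.00522) and BTN2, which gathers misfolded proteins, by 0.50 (adjusted p = 0.0285). The main chaperone genes SSA1 and HSP82 were flat at -0.01 and 0.03. Of 31 oxidative defence genes 3 were higher (9.68%, against 2.8% of all probe sets). They were GPX1, a glutathione peroxidase (0.56, adjusted p = 0.00632), TRX3, the mitochondrial thioredoxin (0.41, adjusted p = 0.0131), and AHP1, a peroxiredoxin (0.40, adjusted p = 0.0266). OYE2, an NADPH oxidoreductase, fell by 0.49 (adjusted p = 0.0113), at 10.98 and 11.08 in NOX, against 11.54 and 11.50 in control. YNL134C, a reductase gene outside that list, fell as well (-0.69, adjusted p = 0.00353). Flat genes made up 10 of 10 in the trehalose list and 11 of 13 in the glycogen list (84.6%), against 92.2% of all probe sets. ATH1, acid trehalase, rose by 0.43 (adjusted p = 0.0210), and GIP2, a phosphatase subunit tied to glycogen synthase, by 0.61 (adjusted p = 0.0182) while GSY1 fell. HSP26 alone of the genes in these lists was called without either control replicate.

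Further groups held single changes. Of 18 hexose transport genes 2 were higher (11.1%, against 2.8% of all probe sets). HXT2, a high-affinity glucose transporter, and RGT2, a glucose sensor, rose, by 0.52 (adjusted p = 0.00758) and 0.49 (adjusted p = 0.0126), while HXT7 was flat at 0.00. MIG2, a repressor active in glucose, rose by 0.56 (adjusted p = 0.00915). In the cell wall list of 37 genes, the mannoprotein genes SED1 and TIP1 rose, by 0.59 (adjusted p = 0.0153) and 0.51 (adjusted p = 0.00758), whereas CWP1 fell by 0.55 (adjusted p = 0.0247) and MNN1, which adds terminal mannose, by 0.72 (adjusted p = 0.00274). Of 32 iron genes 3 were higher (9.38%, against 2.8% of all probe sets). They were FRE4 at 0.71, FTR1 at 0.26 and TIS11, which was not well above background on either control array. The uridine permease gene FUI1 rose by 0.71 (adjusted p = 0.00587) and URA10, a minor orotate phosphoribosyltransferase, by 0.54 (adjusted p = 0.0269), while URA3, known as the marker of this plasmid series, differed by -0.29 (adjusted p = 0.0517). EEB1, which forms ethyl esters, fell by 0.64 (adjusted p = 0.00649). Of 16 measured thiamine and pyridoxine genes SNO1 and THI13 were higher (12.5%, against 2.8% of all probe sets). The THI13 probe set may detect its near-identical copies. Without either control replicate 0 of the genes in this paragraph were called.

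**Figure D5:**
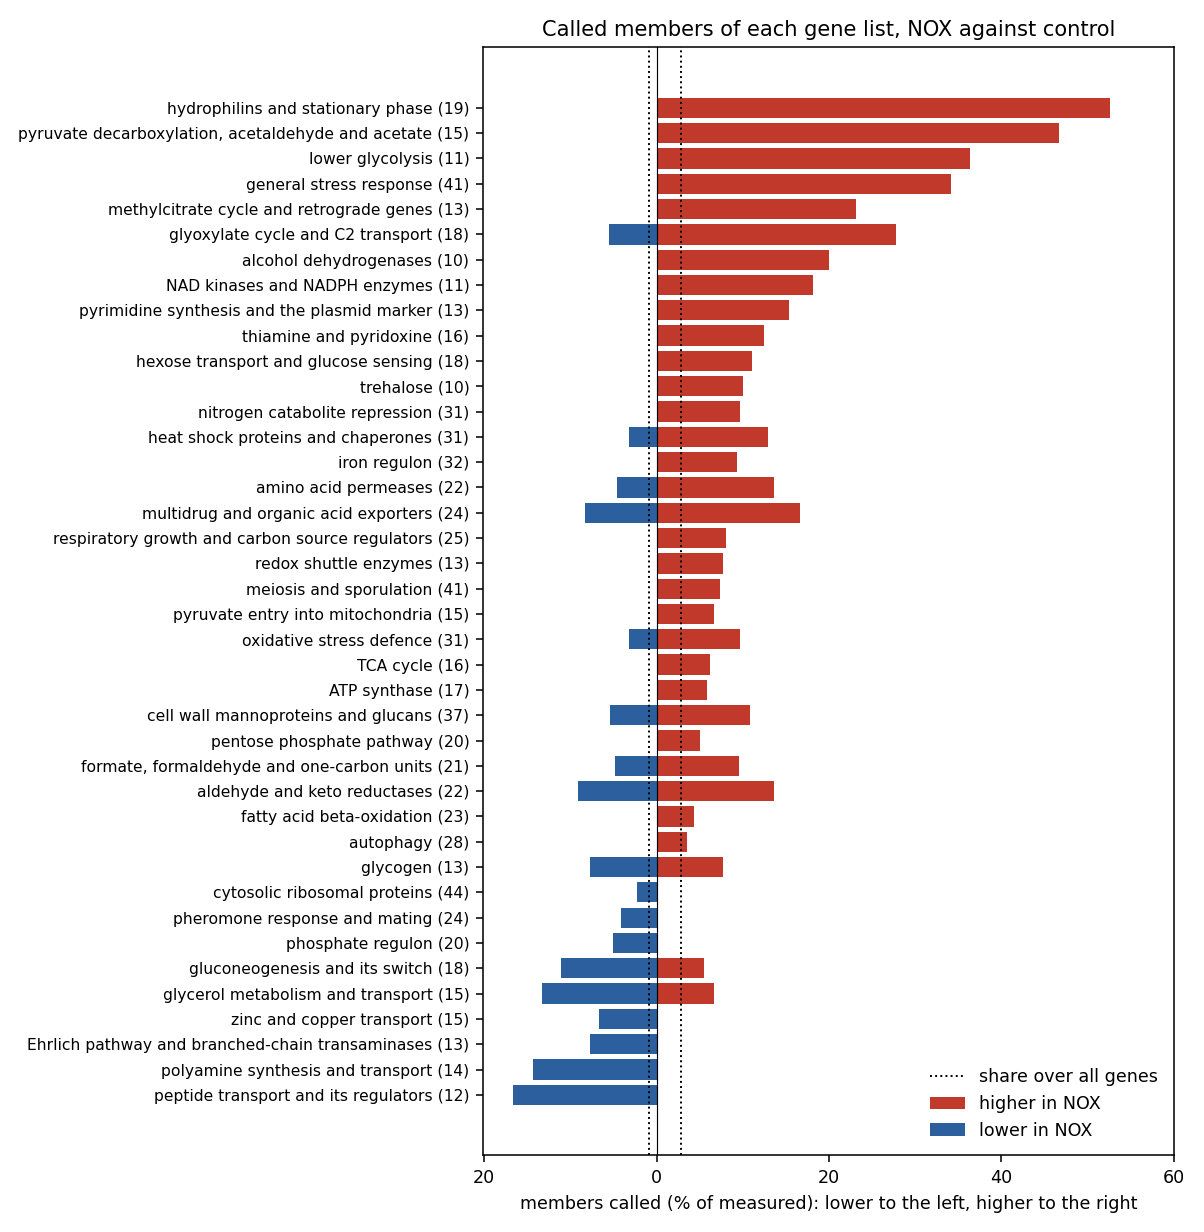
Share of measured members called higher (right, red) and lower (left, blue) in NOX (horizontal axis, percent), for lists with at least 10 measured members and a called member, with the share over all genes dotted and the number measured in brackets. Stationary phase genes reach 52.6% higher, and peptide transport has the largest share called lower.

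Several groups were flat throughout. Of 57 pathway lists, 6 had 0 called members and every measured member flat: complexes III and IV with cytochrome c, mitochondrial ribosomal proteins, ergosterol synthesis, the proteasome, peroxisome assembly, and cyclins, histones and replication. They hold 209 genes, read against 92.2% flat over all probe sets. All 61 mitochondrial ribosomal protein genes were flat, with MRPS9 at 0.02 and MRPS12 at -0.05. All 28 ergosterol genes were flat, with ERG6, a sterol methyltransferase, at 0.06 and ERG13, the HMG-CoA synthase, at -0.14. All 33 proteasome genes were flat, PUP3 at -0.15 and PRE3 at -0.05 among them. All 39 measured cell cycle genes were flat, with the histone genes HHF1 at -0.04 and HTB1 at 0.09. The 44 cytosolic ribosomal protein genes were flat with a median of -0.02, whose sign turns with the scaling, and RPS9A was called lower at -0.30 (adjusted p = 0.0388). Of 61 ribosome biogenesis genes 59 were flat and 0 called, with NOP1 at -0.21 and RPA135 at -0.17. Of the 61 differences 44 lay below 0, against 2813 of 5498 over all probe sets. Without NOX replicate 2, 11 mitochondrial ribosomal protein genes and 10 ribosome biogenesis genes were called lower and 2 of each higher, and 60 of 61 and 59 of 61 were still flat.

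Set against the AOX strain, which carries another oxidase on the same plasmid, the NOX arrays are the same as above, so the comparisons are not independent. Of all probe sets, 8.38% were called between NOX and AOX, 4.38% higher and 4% lower in NOX. FDH1 was higher in NOX than in AOX by 3.48, ADH2 by 3.29, RGI2 by 3.11, ATO3 by 2.92, PUT1 by 1.82, ICL2 by 1.72 and ACS1 by 1.14, and PTR2 was lower by 2.14. The adjusted p was between 8.95e-05 and 0.000989 for FDH1, ATO3, PUT1, ICL2, ACS1 and PTR2. Against control the NOX rises were smaller, at 3.38 for FDH1, 1.98 for ADH2, 1.85 for RGI2 and 1.17 for ATO3. They were 0.72 for PUT1, 0.92 for ICL2 and 0.76 for ACS1, and PTR2 differed by -2.11. The rest of each gap is a difference of AOX from control, small for FDH1 and PTR2. For the stress genes DDR2 (-0.01, adjusted p = 0.971) and HSP42 (-0.01, adjusted p = 0.927) and for TDH1 (0.00, adjusted p = 0.988) NOX and AOX were not told apart. PCK1 was higher in NOX than in AOX by 0.70 (adjusted p = 0.00398), although lower than in control.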

How the data were processed

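Whole-genome expression of 3 strains was measured on 6 arrays. The deposited values are intensities on a linear scale, 1 per probe set, and their summarising program was not given in the sources used here. All labelled columns were used. Intensities were increased by 16, transformed to log2 and quantile normalized over all probe sets of the 6 arrays. A mean per strain was fitted over 6 arrays with limma 3.58.1 in R 4.3.3, for the 5498 probe sets named for 1 S. cerevisiae gene, with Benjamini-Hochberg adjustment at 0.05. A gene with several probe sets was taken at its brightest. Background was the 95th percentile of probe sets designed for another organism. The script was tested on simulated data. The named genes were the 20 largest called rises and falls, up to 6 called members of each list by adjusted p, called members opposite in sign to their list, pairs with a called member, the brightest members of flat lists and a fixed set of redox and carbon genes. Further uncalled genes given for contrast, such as CAT8, ADR1, CTT1, GAP1, PUT2, ARO9, ARO10 and TPO2, were chosen after their values were seen. The members, lists and pairs were chosen with earlier results of these data known. Alternatives covered scaling, pseudocount, dim probe sets, variance trend, threshold, arrays left out and a replicate block. Promoter motifs were not analysed here. The number of arrays limits the precision.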

Additional observations from a re-analysis of the deposited data

How the results depend on the processing

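The counts of calls depended on which arrays were fitted. No named call changed direction, which fits with 1 array left out could not have shown, since the arrays of called probe sets did not overlap. The count of flat probe sets moved little, with 5069 in the main fit, 5025 on the NOX and control arrays alone and 5000 with a replicate block. The fit on the NOX and control arrays alone called 111 probe sets (94 higher, 17 lower), 63 genes of the lists and 69 of the 108 named called genes. Its values were still those normalized together with the AOX arrays. Adding a replicate block gave 79 (65 higher, 14 lower), 50 and 58. An adjusted p below 0.01 gave 76 (63 higher, 13 lower), 47 and 55. Leaving out 1 array at a time gave between 14 and 1453 calls, between 12 and 739 higher, between 2 and 714 lower, between 10 and 367 genes of the lists and between 13 and 108 named genes, the lone array being assumed to vary like the other strains. The lowest came without a control array and the highest without NOX replicate 2, where 50.9% of calls were higher, against 75.5% with all arrays. The deviations of same-numbered NOX and control arrays had a correlation of 0.12, and 2 numbers do not show a pairing. Leaving out either control array changed the size of 0 of the 108 named called differences by a factor above 1.5. Pairs of arrays differed with an SD of 0.05 in control, 0.20 in NOX and 0.14 in AOX. A fit without 1 control array takes its shared spread from the NOX and AOX pairs alone. The part of this in the lost calls was not tested. Signal near background limits the low genes, and for the others the cause was not tested.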

Other observations

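Some called genes were neighbours on the chromosome. Of 5433 adjacent pairs of measured genes, 15 had both members called, 9 both higher, 1 both lower and 5 in opposite directions. The mannoprotein gene TIP1 and the permease genes BAP2 and TAT1 are adjacent, as are CIT3 and PDH1 of the methylcitrate cycle, SRY1 and JEN1, and GDH2 and the kinase gene PRR2. Of the genes called lower, 16.7% lay within 10 genes of a chromosome end, against 9.09% of those called higher and 5.87% of all genes. Genes known by a systematic name alone made up 15.6% of those called higher, 10.4% of those called lower and 9.27% of all.

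Probe sets with no gene name held 0 calls by limma among 3470 tested, with 317 at an unadjusted p below 0.05. Only 270 of the 3470 stood above background on all 6 arrays, so the lack of calls says little about the dimmer ones.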
